A study of Mus musculus with 6 samples.

Results

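The chemokine transcripts of the mouse brainstem were examined in 10 genes: Cxcl10, Cxcl9, Ccl5, Ccl3, Ccl4, Ccl2, Cxcl12, Cx3cl1, Ccl27a and Cxcl14. They were taken by gene symbol from the deposited expression table, which held all 10 among its 18058 genes. All 10 also reached a mean of 0.1 CPM (read counts scaled to the size of the library) over the 6 libraries, the level required for testing, which 16762 genes reached. None of the 10 lies on chromosome 2, which carries Rag1.

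Total RNA of whole brainstems, snap-frozen from uninjected mice aged 1 month, was sequenced, with 3 independent mice for each genotype. The controls were wild type (WT) C57BL/6J mice, and the others were Rag1-/- mice of the strain B6.129S7-Rag1tm1Mom/J. The Rag1 protein is part of the enzyme that joins antigen receptor gene segments, and mice without its function lack mature T and B cells. The comparison addressed which brainstem transcripts differ when these lymphocytes are lacking, in a study of glioma formation by implanted human cells. The labels describe the material as brainstem cells and give no sex.

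Chemokines are small secreted proteins that direct the migration of leukocytes by binding G protein-coupled receptors. One class is scarce in resting tissue and is induced by cytokines: Cxcl9 and Cxcl10 are induced by interferon and attract activated T cells through Cxcr3, Ccl3, Ccl4 and Ccl5 attract T cells and macrophages, and Ccl2 attracts monocytes through Ccr2. Another class is made constantly in the healthy brain, among them Cx3cl1, a membrane-tethered neuronal ligand of the microglial receptor Cx3cr1, and Cxcl12, the ligand of Cxcr4.

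The low values moved in steps of 1 read, which gave estimated depths of 34800000 to 46400000 reads for the WT libraries and 31600000 to 35100000 for the libraries labelled Rag1-/-. A level of 3 reads, taken as the floor, equalled 0.0646 to 0.0862 CPM in WT and 0.0854 to 0.095 CPM in those labelled Rag1-/-. The transcript of the targeted gene was higher, not lower, under the mutant label. Rag1 transcripts amounted to 0.236, 0.388 and 0.115 CPM for WT replicates 1, 2 and 3 and to 2.6, 4.02 and 2.9 CPM in those labelled Rag1-/-, so every direction below rests on the label. This value covers the whole gene and is not confined to the altered part of the allele, so it does not test the label by itself. Ms4a1, a B cell gene under the filter, was at 0.0473, 0.108 and 0.0863 CPM in WT and at 0.0001 CPM in all 3 labelled Rag1-/-. The WT libraries also differed among themselves, since Xist, a transcript of the inactive X chromosome, reached 172 and 177 CPM in WT replicates 1 and 2 but 2.93 CPM in WT replicate 3, and stayed under 1 CPM in the others. Neuronal markers were plentiful in every library, with a summed level of 3830 to 4400 CPM over 10 genes, and the brainstem neuron genes Tph2 and Slc6a5 were detected in all 6. The libraries stood apart in these regional genes in both genotypes, with Tph2 at 10 to 30.7 CPM in WT and 12.3 to 58.0 CPM in those labelled Rag1-/-, and Slc6a5 at 15.4 to 40.9 and 8.3 to 38.1 CPM.

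Of the 10 chemokines, 3 were lower in the libraries labelled Rag1-/- at a limma-trend p of at most 0.05 before adjustment, and none was higher. The 3 were Cxcl10, Cxcl9 and Ccl5, all of the cytokine-induced class. Cxcl9 reached the filter through its WT libraries alone (mean 0.229 CPM, against 0.0414 CPM in those labelled Rag1-/-), so its call is a description and lends nothing to the count. Cxcl10 was singled out by the study from these same libraries, so its place in the count is not independent evidence either. Across all 16762 tested genes, 9.29% were lower and 2.27% were higher at that threshold. After Benjamini-Hochberg adjustment over all tested genes, 0 of the 10 had an adjusted limma-trend p under 0.05, as against 0.0477% of all tested genes. For Cxcl10 and Ccl5, the highest value labelled Rag1-/- was under the lowest WT value, which held for 14.4% of all tested genes, while none of the 10 was higher in this way, as 3.98% of all tested genes were. The log2 fold change was below 0 in 7 of the 10, with a median of -0.114, beside 67.7% of all tested genes with a median of -0.0505. This is a description, since Ccl2 (mean 0.152 CPM in WT and 0.0997 CPM in those labelled Rag1-/-), like Cxcl9, reached the filter through WT alone. One of the 7, Ccl4, was above 0 under quantile normalization, at 0.055. The excess of lower over higher genes also depended on the scaling, since 80.4% of all genes called were lower as deposited, 42.8% after quantile normalization and 45.5% after median-of-ratios rescaling. With 3 mice in each group, the p-values speak for these mice alone. The limma-trend p also draws each gene's variance toward a trend fitted over all tested genes.

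**Figure D1:**
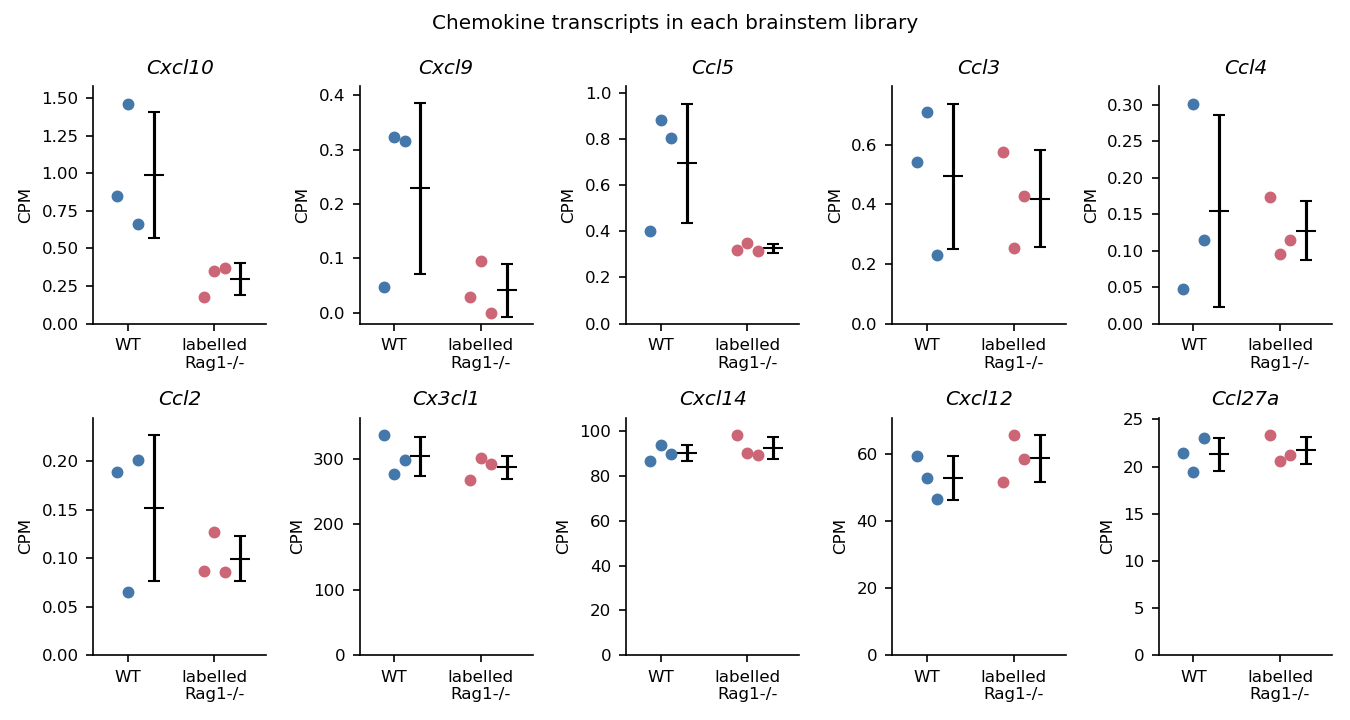
Level of each of the 10 chemokines in CPM (y axis, separate linear scales) in the 3 WT libraries (blue points) and the 3 libraries labelled Rag1-/- (red points), replicates 1 to 3 from left to right, with the mean and SD of each group (black). The groups are apart for Cxcl10 and Ccl5, WT replicate 1 falls among the libraries labelled Rag1-/- for Cxcl9, and the groups overlap for the other 7.

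Cxcl10 (chr5:92346639-92348889, minus strand, mm10) had the difference with the smallest p of the 10. Its level was 0.850, 1.46 and 0.661 CPM in WT replicates 1, 2 and 3, which stands for 36, 68 and 23 reads. In replicates 1, 2 and 3 labelled Rag1-/- it was 0.173, 0.349 and 0.370 CPM, or 6, 11 and 13 reads. The lowest WT library was therefore above the highest library labelled Rag1-/-, although the exact Poisson 95% intervals of that pair, 0.419 to 0.992 CPM and 0.197 to 0.633 CPM, overlapped. Intervals of this kind cover counting error only. The means were 0.992 ± 0.420 CPM (SD, n = 3) in WT and 0.297 ± 0.108 CPM (SD, n = 3) in those labelled Rag1-/-, which is 3.33-fold lower as a ratio of means. On the log2(CPM + 0.1) scale, which understates the change of low transcripts, the difference was -1.43 (95% interval -2.18 to -0.68, standard error (SE) 0.33), with a limma-trend p of 0.00201 before and 0.289 after adjustment. Of all tested genes, 116 had a smaller p. An exact permutation test (two-sided) gave p = 0.1, the lowest possible with 3 libraries against 3. Pooled over the libraries, 127 reads in WT stood against 30 in those labelled Rag1-/-, a ratio of depth-scaled rates of 0.288 (exact 95% interval 0.187 to 0.432). The pooled interval, too, covers counting error only and leaves out the spread between mice. Cxcl10 is a transcript that the study singled out from these same libraries, so its direction is not independent evidence. In whole tissue, fewer cells of a type and less RNA per cell cannot be told apart.

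The highest Cxcl10 levels were in WT replicates 1 and 2, which were also the deepest libraries and those with Xist over 100 CPM. With a term for these libraries in the model, the difference was -0.98 and its unadjusted limma-trend p lay just above the threshold of 0.05. That contrast sets WT replicate 3 alone against the 3 libraries labelled Rag1-/-. Leaving out each library in turn gave differences between -1.66 and -1.14, all with an unadjusted p of at most 0.05. The gene lies within Art3 on the opposite strand, and 133 of its 2252 annotated exon bases are shared with Art3 exons. Art3 was at 2.41, 2.56 and 2.56 CPM in WT and at 3.41, 2.53 and 2.73 CPM in those labelled Rag1-/-, a log2 difference of 0.19 that did not pass the test (limma-trend p of 0.211 before adjustment). Whether the counting used strand is not given in the sources used here.

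Cxcl9 (chr5:92321331-92328079, minus strand), the neighbouring ligand of the same receptor, was near the floor of 3 reads. WT replicates 1, 2 and 3 held 0.0473, 0.323 and 0.316 CPM, from 2, 15 and 11 reads. In replicates 1, 2 and 3 labelled Rag1-/- it was at 0.0290, 0.0951 and 0.0001 CPM, from 1, 3 and 0 reads, where 0.0001 CPM is the lowest deposited value. The groups overlapped because WT replicate 1 lay between these libraries. The log2 difference was -1.12 (95% interval -2.21 to -0.03), with a limma-trend p of 0.0455 before and 0.429 after adjustment, and the exact permutation test gave p = 0.2. Over the groups, 28 reads stood against 4, a rate ratio of 0.174 (exact 95% interval 0.0444 to 0.498). That interval covers counting error only and leaves out the spread between mice. The call was lost with a pseudocount of 1, after quantile normalization, without a variance trend and without replicate 1 or 3 labelled Rag1-/-, with unadjusted limma p between 0.0571 and 0.139, and without WT replicate 2 or 3 the gene fell under the filter.

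The promoters of Cxcl10 and Cxcl9 are shown because these neighbouring genes encode ligands of 1 receptor and held, alone among the 7 chemokines with a RefSeq promoter window, matches to the cores of 2 induction motifs. The interferon-stimulated response element (ISRE) is bound by interferon regulatory factors, and NF-kappaB carries signals from tumour necrosis factor and interleukin 1. The letters searched on both strands were GAAANNGAA for the ISRE core, GGGANNTNC for the NF-kappaB core, TGANTCA for AP-1 and TATAAA for the TATA box, in the 250 bases before the RefSeq start. The sequences are from RefSeq (GRCm38.p6), 5′ to 3′ on the gene's own strand, with motif matches in capitals, and lie at chr5:92348890-92349139 for Cxcl10 and chr5:92328080-92328329 for Cxcl9, both on the minus strand.
Cxcl10: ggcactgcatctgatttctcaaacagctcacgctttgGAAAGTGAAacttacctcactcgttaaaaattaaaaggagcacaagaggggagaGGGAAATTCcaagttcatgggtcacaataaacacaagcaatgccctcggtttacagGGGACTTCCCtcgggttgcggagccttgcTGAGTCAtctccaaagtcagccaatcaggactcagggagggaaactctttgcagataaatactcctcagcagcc
Cxcl9: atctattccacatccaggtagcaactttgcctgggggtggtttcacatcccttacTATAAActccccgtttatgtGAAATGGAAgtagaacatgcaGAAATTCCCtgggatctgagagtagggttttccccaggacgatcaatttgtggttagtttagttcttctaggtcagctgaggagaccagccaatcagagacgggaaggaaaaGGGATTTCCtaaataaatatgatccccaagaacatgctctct
In Cxcl10 the capitals mark, in order, an ISRE core from 213 to 205 bases before the start and an NF-kappaB core from 159 to 151. Next are a pair of overlapping NF-kappaB cores on opposite strands from 103 to 95 and from 102 to 94, and an AP-1 match from 74 to 68. The AP-1 pattern allows any middle base, so it is matched on both strands there. In Cxcl9 they mark a match to the letters TATAAA from 195 to 190 bases before the start and an ISRE core from 175 to 167. An NF-kappaB core lies on the opposite strand from 154 to 146 and another on the gene's strand from 42 to 34. Of 32851 promoter windows of this length, 7.13% held the ISRE core, 12.5% the NF-kappaB core, 6.75% AP-1 and 12.4% the TATA box, and 0.755% held both the ISRE and the NF-kappaB cores. Among the other chemokines, an ISRE core lay in the windows of Ccl3 and Cxcl14, and an NF-kappaB core and a TATAAA match in that of Cx3cl1. An AP-1 match lay in 1 of the 3 windows of Ccl27a, and none of the 4 motifs in that of Cxcl12. Ccl2, Ccl4 and Ccl5 had no window in the table used. A match describes letters only and is not a binding site.

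**Figure D2:**
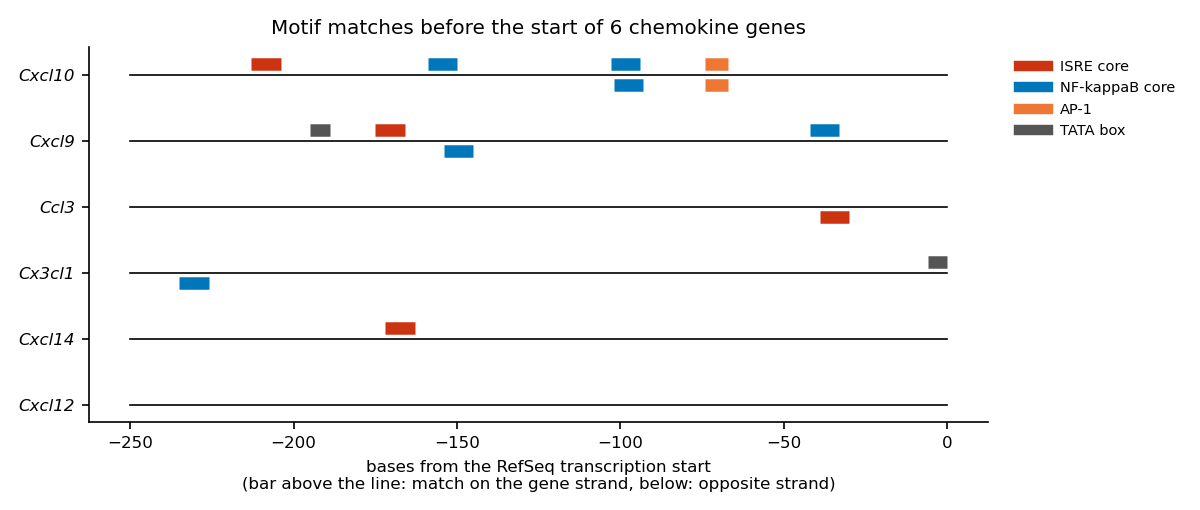
Positions of motif matches (coloured bars) in the 250 bases before the RefSeq start (x axis, bases from the start at 0) of the 6 chemokines with a single promoter window, with matches on the gene's strand above each line and those on the opposite strand below. Cxcl10 and Cxcl9 have both ISRE and NF-kappaB cores, and Cxcl12 has no match.

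Ccl5 (chr11:83525779-83530518, minus strand) encodes a ligand of Ccr1 that T cells and activated glia can secrete. WT replicates 1, 2 and 3 held 0.401, 0.883 and 0.805 CPM, from 17, 41 and 28 reads. In replicates 1, 2 and 3 labelled Rag1-/- it was at 0.318, 0.349 and 0.313 CPM, from 11 reads in each. The groups did not overlap, but WT replicate 1 was close to the libraries labelled Rag1-/-, and its exact Poisson interval of 0.234 to 0.642 CPM took in all 3 of their values. The means of 0.696 ± 0.259 and 0.327 ± 0.0192 CPM (SD, n = 3 each) differed 2.13-fold. The log2 difference was -0.84 (95% interval -1.49 to -0.19, SE 0.29), with a limma-trend p of 0.0168 before and 0.372 after adjustment, and the exact permutation test gave its smallest p, 0.1. Over the groups, 86 reads stood against 33, a rate ratio of 0.468 (exact 95% interval 0.303 to 0.707). That interval covers counting error only and leaves out the spread between mice. The call was lost without WT replicate 2 (-0.66, limma-trend p of 0.0696 before adjustment) and without WT replicate 3 (-0.72, p of 0.0558).

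The summed level of Cxcl10, Cxcl9 and Ccl5 was 1.3, 2.67 and 1.78 CPM in the WT libraries and 0.52, 0.792 and 0.684 CPM in those labelled Rag1-/-, a separation that the choice of lower genes builds in. The summed level of Ccl2, Ccl3 and Ccl4 overlapped between the genotypes, with WT replicate 3 at 0.546 CPM and replicate 1 labelled Rag1-/- at 0.838 CPM. The order of the WT libraries was not shared, since replicate 1 was the lowest of the WT libraries for Cxcl9 and Ccl5, and replicate 3 was the lowest for Cxcl10. Replicate 2 was the highest WT library for all 3.

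**Figure D3:**
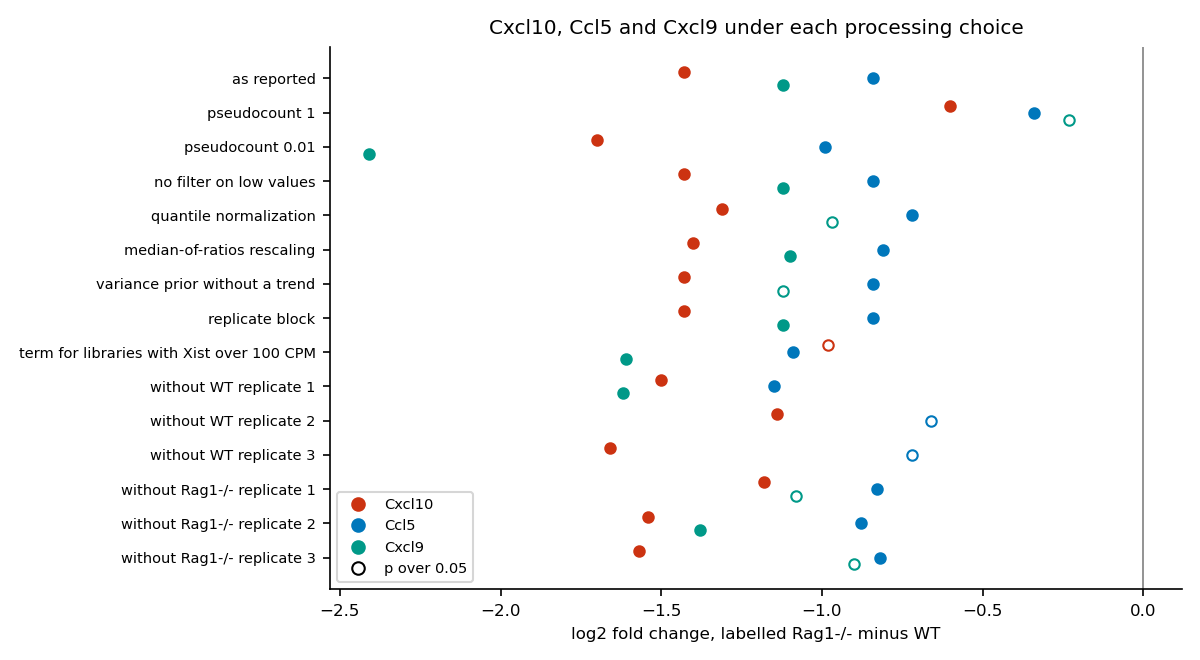
Log2 fold change of Cxcl10 (red), Ccl5 (blue) and Cxcl9 (green) in the libraries labelled Rag1-/- minus WT (x axis) under each processing choice that kept the gene in the test (y axis), with open circles where the unadjusted limma p was over 0.05. All points lie below 0, and Cxcl10 has 1 open circle, Ccl5 has 2 and Cxcl9 has 5.

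Ccl3 (chr11:83647843-83649378, minus strand), Ccl4 (chr11:83662584-83664683, plus strand) and Ccl2 (chr11:82035577-82037452, plus strand) were low and did not pass the test. Ccl3, which encodes macrophage inflammatory protein 1-alpha, was at 0.543, 0.711 and 0.230 CPM in WT and at 0.578, 0.254 and 0.427 CPM in those labelled Rag1-/-. The groups overlapped fully, and the log2 difference was -0.15 (95% interval -1.01 to 0.72, adjusted p = 0.899 by limma-trend, exact permutation p = 0.8). Ccl4, its neighbour and close relative, was at 0.0473, 0.302 and 0.115 CPM in WT and at 0.173, 0.0951 and 0.114 CPM in those labelled Rag1-/-, a difference of -0.05 (95% interval -0.97 to 0.86, adjusted p = 0.971 by limma-trend, exact permutation p = 0.8). WT replicate 2 was the highest and WT replicate 1 the lowest of the 6 libraries for Ccl4. For Ccl2, a monocyte attractant, the levels were 0.189, 0.0647 and 0.201 CPM in WT and 0.0867, 0.127 and 0.0855 CPM in those labelled Rag1-/-. Its difference was -0.29 (95% interval -1.05 to 0.47, adjusted p = 0.758 by limma-trend, exact permutation p = 0.4), on 18 reads against 10, and was -0.57 without WT replicate 2 and -0.13 without WT replicate 3. The intervals of all 3 take in -0.84, the log2 difference of Ccl5, so a difference of that size was within their error. Without WT replicate 2 the differences of Ccl3 and Ccl4 turned to 0.12 and 0.34.

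The 4 chemokines made constantly in the brain were each over 10 CPM and did not pass the test in either direction. Cx3cl1 (chr8:94772180-94782426, plus strand) was at 336.0, 277 and 298 CPM in WT and at 267, 301 and 292 CPM in those labelled Rag1-/-. Its groups overlapped, and the log2 difference was -0.08 (95% interval -0.25 to 0.09, adjusted p = 0.696 by limma-trend, exact permutation p = 0.5). Cxcl14 (chr13:56288643-56296551, minus strand), a conserved chemokine with neuronal expression, was at 86.8, 94.0 and 89.9 CPM in WT and at 98.4, 90.3 and 89.5 CPM in those labelled Rag1-/-, a difference of 0.04 (95% interval -0.08 to 0.16, adjusted p = 0.791 by limma-trend, exact permutation p = 0.6). Cxcl12 (chr6:117168535-117181368, plus strand), which retains and guides cells that bear Cxcr4, was at 59.5, 52.8 and 46.4 CPM in WT and at 51.7, 65.6 and 58.6 CPM in those labelled Rag1-/-. The difference of Cxcl12 was 0.15 (95% interval -0.09 to 0.39, adjusted p = 0.595 by limma-trend, exact permutation p = 0.5). It reached 0.24 without WT replicate 1, the highest WT library, with a limma-trend p of 0.0479 before adjustment, and 0.33 with the Xist term, with a p of 0.0262. Ccl27a (chr4:41769470-41774176, minus strand), a ligand of Ccr10 known from skin, was at 21.5, 19.4 and 23.0 CPM in WT and at 23.3, 20.6 and 21.3 CPM in those labelled Rag1-/-, a difference of 0.03 (95% interval -0.15 to 0.21, adjusted p = 0.897 by limma-trend, exact permutation p = 0.8). For these 4, the intervals leave out a difference as large as the -0.84 of Ccl5. Ccl27a has near-identical copies, among them Ccl27b and Gm13306, which carry identical values of 0.438 to 0.871 CPM in the table, so the division of reads between the copies is uncertain.

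Levels of different genes were compared in CPM per kilobase of the longest RefSeq transcript, as means over the 6 libraries. Cx3cl1 was the highest at 89.0 CPM per kilobase (range 80.5 to 101), ahead of Cxcl14 at 50.1 (47.5 to 53.9), Ccl27a at 25.6 (23.1 to 27.8) and Cxcl12 at 9.91 (8.24 to 11.7). Each of these 4 lay outside the range of the next. The induced chemokines followed at 0.961 for Ccl5, 0.597 for Ccl3, 0.589 for Cxcl10, 0.214 for Ccl4, 0.155 for Ccl2 and 0.0468 CPM per kilobase for Cxcl9, and every neighbouring pair among them overlapped in range. Within WT alone, Cxcl10 was at 0.907 ± 0.384 and Ccl3 at 0.646 ± 0.319 CPM per kilobase (SD, n = 3), whereas in the libraries labelled Rag1-/- Cxcl10 was at 0.272 ± 0.0987 and Ccl3 at 0.548 ± 0.212. The ranges of Cxcl10 and Ccl3 overlapped in each genotype. With the shortest transcript instead, Ccl27a reached 61.5 and passed Cxcl14.

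Of 28 further ligands listed, 19 were in the table and 14 were tested, of which 1 was lower and 2 were higher (Ccl24 lending nothing to that count, as given below) at a limma-trend p of at most 0.05 before adjustment, none with an adjusted p under 0.05, and the median log2 difference was 0.25. Over all tested genes, the shares were 9.29% and 2.27% and the median was -0.0505, so the share called lower was not above the background. Of the 14, every value labelled Rag1-/- was over every WT value in 4, Ccl24 among them, and under every WT value in 1. The shares of all tested genes apart in these ways were 3.98% and 14.4%. Cxcl16, a transmembrane ligand of Cxcr6, was lower, at 1.27, 1.81 and 1.96 CPM in WT and 0.598, 1.01 and 0.988 CPM in those labelled Rag1-/-, a difference of -0.89 (SE 0.24, adjusted p = 0.331 by limma-trend). Ccl25, a ligand of Ccr9, was higher, at 2.67, 2.39 and 2.41 CPM in WT and 3.58, 3.04 and 3.50 CPM in those labelled Rag1-/-, a difference of 0.42 (adjusted p = 0.340 by limma-trend). Ccl24, an eotaxin, was at 0.0709, 0.108 and 0.0576 CPM in WT and 0.289, 0.190 and 0.171 CPM in those labelled Rag1-/-. It reached the filter through the latter alone, so its log2 difference of 0.82 is a description. The groups of all 3 genes were apart, but the WT levels of Ccl24 lay near the floor of 3 reads. Its call was lost without WT replicate 1 or 3, without replicate 1 labelled Rag1-/- and with the Xist term. Cxcl11, the remaining ligand of Cxcr3, was under the filter, at 0.0237, 0.0432 and 0.144 CPM in WT and 0.0290, 0.127 and 0.0001 CPM in those labelled Rag1-/-.

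No receptor of these chemokines passed the test. Of 23 receptors listed, 16 were in the table and 13 were tested, and 0 had a limma-trend p of at most 0.05 before adjustment, where 9.29% of all tested genes were lower and 2.27% higher, with a median log2 difference of -0.014. Cxcr3, the receptor of Cxcl9 and Cxcl10 on activated T cells, was under the filter, at 0.118, 0.0647 and 0.0288 CPM in WT and 0.0001, 0.0951 and 0.0286 CPM in those labelled Rag1-/-. Cx3cr1 was between 37.7 and 44.1 CPM in WT and between 39.7 and 40.8 CPM in those labelled Rag1-/- (95% interval of the difference -0.14 to 0.13). For further receptors of the 10 ligands, the differences were -0.06 for Ccr1, 0.05 for Ccr2, -0.02 for Cxcr4, 0.01 for Ackr3, the scavenging receptor of Cxcl12, and 0.19 for Ccr10.

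The genes through which interferon and NF-kappaB induce Cxcl10 were lower in part. Of 21 listed, 20 were in the table and 18 were tested, of which 6 were lower and 0 were higher at a limma-trend p of at most 0.05 before adjustment, with a median log2 difference of -0.098 and no adjusted p under 0.05. The share called lower over all tested genes was 9.29%. Irf7, Irf9, Stat2, Nfkbia and Ifngr1 were among the 6. Irf7, a transcription factor that amplifies interferon production, was at 5.76, 5.10 and 4.57 CPM in WT and 3.03, 2.5 and 3.10 CPM in those labelled Rag1-/-, a difference of -0.82 (SE 0.13, adjusted p = 0.165 by limma-trend). Irf9 and Stat2, transcription factors that act together on the ISRE, differed by -0.47 and -0.31, the NF-kappaB inhibitor Nfkbia by -0.50 and the interferon-gamma receptor chain Ifngr1 by -0.20. All 6 kept an unadjusted p of at most 0.05 in each of the 15 alternatives. Irf1, which binds the ISRE directly, was at 4.01, 4.29 and 4.05 CPM in WT and 3.81, 2.95 and 3.59 CPM in those labelled Rag1-/-, and its difference of -0.26 did not pass (limma-trend p of 0.067 before adjustment). The NF-kappaB subunits Nfkb1 and Rela were at -0.08 and -0.02, and Tnf and Il1b were under the filter. Ifng is not analysed here.

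**Figure D4:**
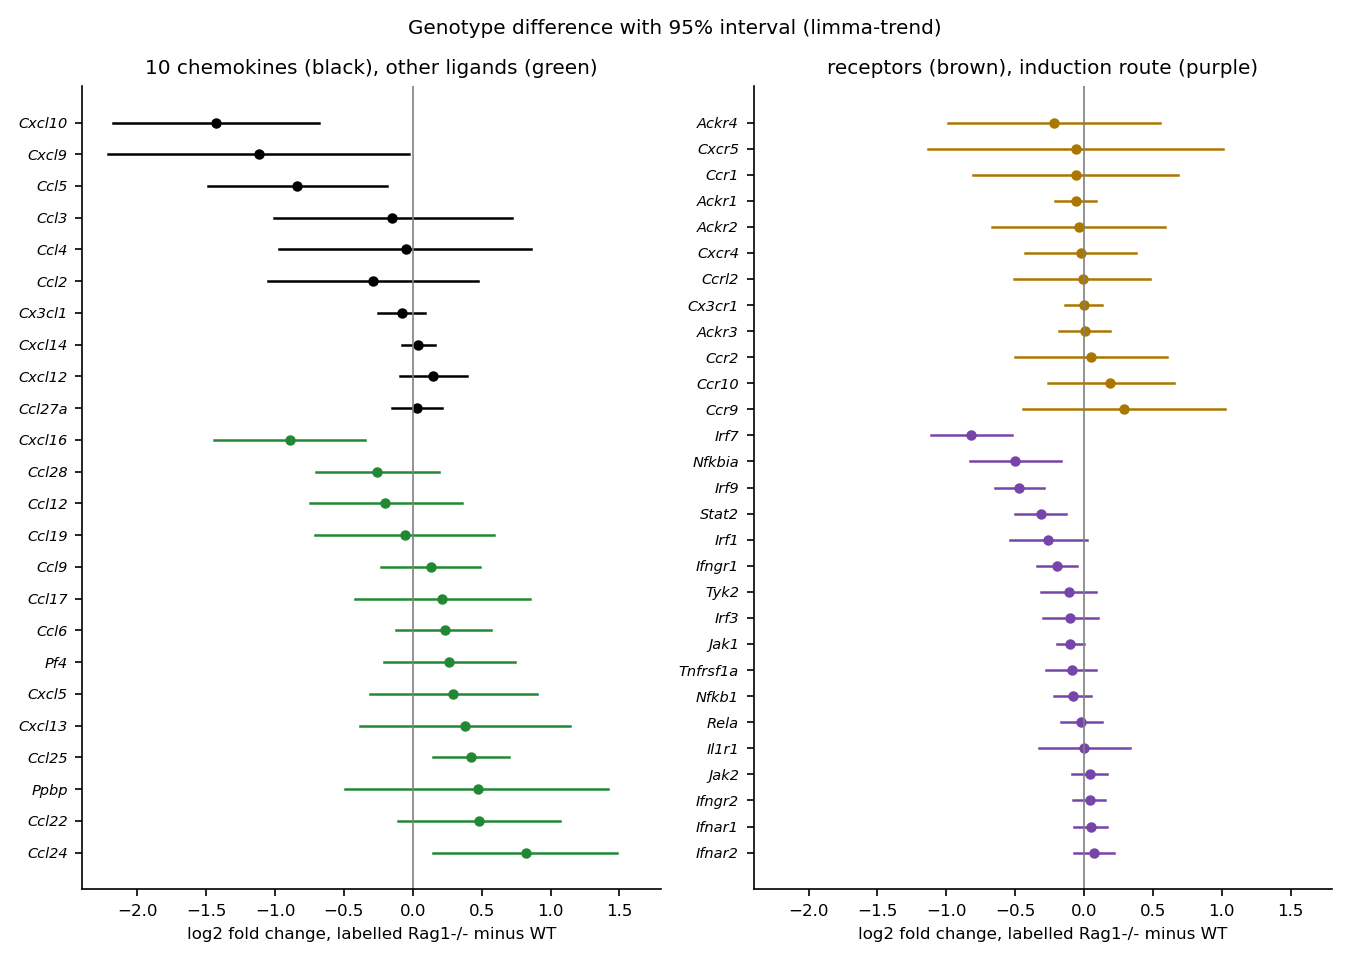
Log2 fold change of the libraries labelled Rag1-/- minus WT (x axis, points) with 95% intervals from limma-trend (lines) for the 10 chemokines and 14 other ligands on the left, and for the receptors and the genes of the interferon and NF-kappaB route that are reported here on the right. The intervals of Cxcl10, Cxcl9, Ccl5, Cxcl16, Irf7, Irf9, Stat2, Nfkbia and Ifngr1 lie below 0, those of Ccl25 and Ccl24 lie above 0, and those of the plotted receptors span 0.

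Markers of the cell types that could supply these transcripts were summed in each library, and their part in the chemokine differences was not tested. The shares called over all tested genes, 9.29% lower and 2.27% higher, stand as the background of the counts below, and 1 lower gene in a list of 10 or 12 is near it. Of 9 T cell markers listed, 7 were in the table, and the other 2 are not analysed here. Of the 4 tested, 0 had a limma-trend p of at most 0.05 before adjustment, and the 7 summed to 1.59 to 2.44 CPM in WT and 1.39 to 1.68 CPM in those labelled Rag1-/-. Cd3e, a chain of the T cell receptor complex, was at 0.0237, 0.0216 and 0.144 CPM in WT and at 0.0001, 0.0318 and 0.0001 CPM in those labelled Rag1-/-, so it exceeded the floor in WT replicate 3 alone. The 4 B cell markers summed to 0.661 to 0.978 and 0.444 to 0.627 CPM, without overlap, with 0 of 2 tested past that threshold. Microglial markers summed to 333 to 355 CPM in WT and 321 to 348 CPM in those labelled Rag1-/-, with 1 of 12 lower (C1qc). Astrocyte markers summed to 4460 to 4800 and 4820 to 4990 CPM, without overlap, with 1 of 10 higher (Aqp4) and none lower. The gap was narrow, and the sums overlapped when Slc1a2, Slc1a3 or Aqp4 was left out. The median log2 difference of the list was 0.028, and Gfap and Slc1a3 were each at -0.12. Endothelial markers summed to 274 to 328 and 288 to 317 CPM, with 1 of 10 lower (Cdh5). Fibroblast and mural markers summed to 231 to 243 and 213 to 244 CPM, with 2 of 8 lower (Col1a1 and Dcn). The calls of these 5 single markers held in 5 to 9 of the 15 alternatives. The list that differed most was that of marrow granulocytes, with 6 of 7 tested lower (S100a9 by -1.51, Retnlg by -1.14) and sums of 5.1, 12.3 and 18.3 CPM in WT replicates 1, 2 and 3 and of 2.66, 3.64 and 5.64 CPM in those labelled Rag1-/-. WT replicate 1 was the lowest of the WT libraries for this sum, as it was for Cxcl9 and Ccl5, whereas Cxcl10 was lowest in WT replicate 3, where the sum was highest. Mpo, 1 of the 6, reached the filter through its WT libraries alone (mean 0.376 CPM, against 0.0403 CPM in those labelled Rag1-/-) and lends nothing to the count. The calls of S100a8 and Ngp were lost without WT replicate 2 or 3, without replicate 1 or 2 labelled Rag1-/- and without a variance trend. Among the genes of these lists that were in the table, none was at 0 in every library.

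The genes most like Cxcl10 over the 6 libraries were Ppat, Shprh, Lmbrd2, Ibtk and Ccdc93, with Pearson correlations of log2(CPM + 0.1) between 0.991 and 0.999. They were chosen as the top 5 of all tested genes, and 409 genes exceeded 0.9. Their log2 differences lay between -0.18 and -0.12, far smaller than that of Cxcl10. Ppat, an enzyme of purine synthesis, was at 10.3, 10.8 and 10.1 CPM in WT and 9.30, 9.64 and 9.70 CPM in those labelled Rag1-/-. Among the chemokines, the correlation with Cxcl10 was 0.785 for Ccl5, 0.671 for Cxcl9 and between -0.615 (Ccl27a) and 0.314 (Cx3cl1) for the others. The points share their libraries, and these correlations are given as a description.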

How the data were processed

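RNA from whole brainstems of 3 WT and 3 Rag1-/- mice was sequenced on an Illumina HiSeq. Per the submitters' processing notes and the study's methods, reads were demultiplexed with bcl2fastq, aligned to mm10 with STAR 2.5.3a and counted on RefSeq genes in Partek Flow. The authors scaled the gene counts to library size and deposited them as CPM, and the lowest deposited CPM is 0.0001. Strandedness and any filter before deposit are not given in the sources used here. Positions are given on mm10 as deposited, except that 1 base was taken off each stop, since 70.9% of the 10271 genes with the start of RefSeq have a stop 1 base past its end.

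The column names give genotype and replicate number. Steps between low values gave the CPM that 1 read is worth, and of the low values 84.0% to 85.5% were whole multiples of it (tolerance 0.1 read). This share was too low to recover counts for all genes, and no test on counts was run. For the 6 low chemokines, all 36 values were whole within that tolerance, and read numbers are given for them. Levels of log2(CPM + 0.1) were compared with limma-trend (limma 3.58.1, R 4.3.3), the model named in the study's methods, over 16762 genes, those whose mean reached 0.1 CPM. The 1296 other genes were not tested. The script was tested on simulated data. Permutation tests were exact and two-sided, and Poisson and rate-ratio intervals were exact (scipy 1.17.1).

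The genes named were the 10 chemokines, genes of 3 background lists (other ligands, receptors, induction route) whose p before adjustment was at most 0.05 (up to 8 a list), the receptors of the members, Ifng and Irf1, the 5 genes most correlated with Cxcl10, Rag1 and Xist. Cxcl11, Nfkb1, Rela, Tnf, Il1b, Art3, Ccl27b, Gm13306, and the single marker genes were named after their values were seen. Some genes that this rule names are not reported here. The members and lists were chosen with earlier results of these data known. Alternatives were other pseudocounts, filters, scalings, variance priors, a replicate block, a term for Xist over 100 CPM, leaving out each library, and the shortest transcript. Promoter windows and transcript lengths are from RefSeq and GENCODE tables of GRCm38.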

Additional observations from a re-analysis of the deposited data

How the results depend on the processing

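Of the 10 chemokines, 3 were called lower, Cxcl9 lending nothing to that count and Cxcl10 singled out beforehand. With a mean of at least 1 CPM required, 4 were tested and 0 were called lower. The count was 2 with a pseudocount of 1, with quantile normalization, without a variance trend and with the Xist term. It was 1 to 3 when each library was left out, with 1 called (Cxcl10) without WT replicate 2 or WT replicate 3. The 0 called higher became 1 (Cxcl12) with the Xist term, and 0 to 1 when each library was left out, with 1 without WT replicate 1. The 2 that did not overlap became 0 with a mean of at least 1 CPM required, and 2 to 3 with a library left out. The count with an adjusted limma p under 0.05 was 0 in each alternative. Over all tested genes, 8 had such a p, 134 with the Xist term, 24 without WT replicate 3 and 2 to 9 otherwise, and the 9.29% called lower became 3.82% with quantile normalization, 4.15% with median-of-ratios rescaling and 5.18% without replicate 1 labelled Rag1-/-. Cxcl10 was at -0.98 with the Xist term, between -1.66 and -1.14 with a library left out, and between -1.7 and -0.6 over its 14 alternatives, 13 of which kept the call, with adjusted limma p between 0.202 and 0.727. Ccl3 turned to 0.6 with the Xist term, 0.12 without WT replicate 2 and 0.1 without replicate 2 labelled Rag1-/-, and the lowest value with a library left out was -0.53. Ccl4 turned to 0.033 with a pseudocount of 0.01, 0.055 with quantile normalization, 0.066 with the Xist term, 0.34 without WT replicate 2 and 0.051 without replicate 2 labelled Rag1-/- (leave-one-out range -0.38 to 0.34). Cxcl14 turned to -0.004 without replicate 1 labelled Rag1-/- (range -0.004 to 0.069). Ccl27a turned to -0.083 with the Xist term, -0.033 without WT replicate 2 and -0.021 without replicate 1 labelled Rag1-/- (range -0.033 to 0.088). None of these 4 passed the test in any alternative. With the shortest transcript, 8 of the 10 ranks per length were as with the longest. With the replicate number as a block, the 3 called lower were the same genes, with Cxcl10 at an unadjusted limma p of 0.0021 and an adjusted p of 0.555. Same-numbered libraries correlated in their deviations at 0.0926, -0.22 and -0.0183, so the numbers did not pair the samples. Apart from the smaller number of genes tested at 1 CPM, the cause was not tested for any of these changes. Depth limits the 6 low chemokines, whose groups hold 4 to 127 reads.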
